A study of Mus musculus with 12 samples.

Results

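Immunoglobulin variable segments, the germline pieces that encode most of an antibody's antigen-binding part, were followed as usage and as its spread over small intestine and liver of mice given LCWE or PBS. The members were all genes of the expression table named Ighv, Igkv or Iglv that reached 1 RPKM (reads scaled to gene length and to the reads of the library) in at least 3 of 12 libraries. This gave 168 of 304 variable segment genes in a table of 34348 genes, namely 90 of 169 heavy-chain segments (Ighv), 75 of 132 kappa segments (Igkv) and 3 of 3 lambda segments (Iglv). The members were chosen by their RPKM in these 12 libraries, so their levels are given as a description.

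The 4 groups were intestine of LCWE mice (numbers 1, 2 and 4), intestine of PBS mice (numbers 2, 3 and 4), liver of LCWE mice (numbers 1, 2 and 4) and liver of PBS mice (numbers 2, 3 and 4), with 3 libraries each, all from the strain C57BL/6. LCWE is the usual short form for cell wall extract of the bacterium Lactobacillus casei, which is injected into mice to model the vasculitis of Kawasaki disease. The labels give the abbreviation alone, and the treated groups are headed LCWECFA in the authors' deposited table, where CFA is not explained. Dose, time, age and sex are not given, PBS is the vehicle control, and no gene was altered in any group. Nothing says that the libraries came from separate animals, so the p-values measure the spread between these libraries, which may be technical.

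A B cell joins 1 variable segment to shorter segments by recombination of its DNA, once for the heavy chain and once for a light chain, so that all descendants of that cell usually transcribe the same pair. Plasma cells, the antibody-secreting end stage of B cells, fill the wall of the small intestine and there make mostly IgA, which the receptor encoded by Pigr carries into the gut lumen. Plasma cells hold far more antibody transcript than resting B cells, so segment usage in bulk RNA leans towards the plasma cell clones present. In bulk tissue, fewer cells of a type and less RNA per cell cannot be told apart.

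All 304 genes were found in the GENCODE M21 annotation of mm10, the build the submitters' processing notes name. Of the members, 166 are annotated as variable genes and 2, Ighv4-2 and Ighv1-62, as pseudogenes. Of the 136 genes outside the rule, 86 are pseudogenes. Heavy members lie on chromosome 12 between 113578504 and 116000461, kappa members on chromosome 6 between 67555497 and 70704177, and lambda members on chromosome 16 between 19085017 and 19260859. Segments of one family resemble each other closely. Over their variable exons, 94 of 166 members had another segment at 95% identity or more and 19 at 98% or more, with a median of 95.4%. Ighv1-62-2 and Ighv1-71 were identical, and Ighv1-72 matched Ighv1-62-3 at 99.0%. Reads of such copies may have been split or dropped, so levels of single segments are uncertain between near copies.

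The variable exons below, cut to their last 300 bases where longer, belong to the segments on which the results turn. They were read from the GENCODE M21 transcripts and written 5′ to 3′ on the coding strand. Capitals mark bases that differ from the sequence printed just above in the same family. Ighv13-2, which led heavy-chain usage in an LCWE and a PBS intestine, lies at chr12:114357759-114358058 on the minus strand, and its nearest relative, Ighv6-3 (chr12:114391712-114392011, minus), matched it at 80.3%. Ighv6-3 is the segment whose difference between LCWE and PBS itself differed most clearly between the tissues.
Ighv13-2: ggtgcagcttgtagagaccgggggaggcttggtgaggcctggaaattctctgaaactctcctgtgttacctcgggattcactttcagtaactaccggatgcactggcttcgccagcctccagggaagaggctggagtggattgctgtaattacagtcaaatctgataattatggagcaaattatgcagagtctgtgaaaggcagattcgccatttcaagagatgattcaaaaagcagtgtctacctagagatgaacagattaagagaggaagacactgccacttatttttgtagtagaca
Ighv6-3: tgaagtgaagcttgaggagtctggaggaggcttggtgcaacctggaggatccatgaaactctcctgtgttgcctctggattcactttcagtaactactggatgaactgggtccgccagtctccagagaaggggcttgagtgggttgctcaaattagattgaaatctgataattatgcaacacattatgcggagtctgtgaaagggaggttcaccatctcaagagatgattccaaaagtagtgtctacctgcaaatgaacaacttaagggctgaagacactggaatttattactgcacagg

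Ighv11-2 (chr12:114048241-114048540, minus) led 1 LCWE intestine. It is known in mice from B-1 cells, where it pairs with Igkv14-126 in antibodies to phosphatidylcholine. Its near copy Ighv11-1 (chr12:113981879-113982178, minus) was 98.7% identical and did not reach the rule.
Ighv11-2: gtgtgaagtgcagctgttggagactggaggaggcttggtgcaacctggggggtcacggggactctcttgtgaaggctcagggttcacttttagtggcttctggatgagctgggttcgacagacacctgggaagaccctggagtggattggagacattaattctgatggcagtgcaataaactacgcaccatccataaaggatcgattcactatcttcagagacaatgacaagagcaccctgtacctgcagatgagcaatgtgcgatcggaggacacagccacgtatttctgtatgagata
Ighv11-1: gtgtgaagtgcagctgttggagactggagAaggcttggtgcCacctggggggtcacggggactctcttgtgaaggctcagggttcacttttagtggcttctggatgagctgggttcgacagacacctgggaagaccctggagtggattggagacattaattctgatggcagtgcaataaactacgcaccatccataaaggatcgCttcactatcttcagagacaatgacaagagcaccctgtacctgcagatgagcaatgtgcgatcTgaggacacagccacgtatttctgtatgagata

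Igkv14-111 (chr6:68256572-68256869, plus) had the smallest p in liver. It is set below Igkv14-126 (chr6:67896345-67896642, plus), with which it shared 90.9% of bases.
Igkv14-126: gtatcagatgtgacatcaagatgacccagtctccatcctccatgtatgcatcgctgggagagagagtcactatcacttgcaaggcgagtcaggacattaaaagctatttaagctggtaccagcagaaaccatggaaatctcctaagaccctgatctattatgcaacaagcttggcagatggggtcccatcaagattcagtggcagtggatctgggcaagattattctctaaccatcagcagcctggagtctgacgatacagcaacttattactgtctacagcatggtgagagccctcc
Igkv14-111: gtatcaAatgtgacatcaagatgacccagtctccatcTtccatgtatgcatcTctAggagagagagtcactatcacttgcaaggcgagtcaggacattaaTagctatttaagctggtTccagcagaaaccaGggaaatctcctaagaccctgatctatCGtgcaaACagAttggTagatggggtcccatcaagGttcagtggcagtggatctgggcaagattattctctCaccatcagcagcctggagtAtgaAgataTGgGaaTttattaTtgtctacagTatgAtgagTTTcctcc

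Igkv1-110 (chr6:68270968-68271267, plus) also passed in liver. Igkv1-117 (chr6:68121528-68121827, plus), which led the kappa chain in 1 LCWE intestine, matched it at 96.8%.
Igkv1-110: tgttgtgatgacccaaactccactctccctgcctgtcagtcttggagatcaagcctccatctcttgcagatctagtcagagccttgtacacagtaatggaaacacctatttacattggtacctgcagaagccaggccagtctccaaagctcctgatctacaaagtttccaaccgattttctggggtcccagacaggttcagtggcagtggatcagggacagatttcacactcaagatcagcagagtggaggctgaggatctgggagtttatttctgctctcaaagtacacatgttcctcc
Igkv1-117: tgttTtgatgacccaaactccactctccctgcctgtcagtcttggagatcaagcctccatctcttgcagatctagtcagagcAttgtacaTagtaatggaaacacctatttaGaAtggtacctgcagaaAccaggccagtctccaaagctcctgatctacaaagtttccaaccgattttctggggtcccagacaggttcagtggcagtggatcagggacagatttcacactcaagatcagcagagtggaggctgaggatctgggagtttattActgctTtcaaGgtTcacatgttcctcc

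Iglv1 (chr16:19085017-19085316, minus) carried most lambda reads and passed in liver. Iglv2 (chr16:19260401-19260700, minus) matched it at 97.0%.
Iglv1: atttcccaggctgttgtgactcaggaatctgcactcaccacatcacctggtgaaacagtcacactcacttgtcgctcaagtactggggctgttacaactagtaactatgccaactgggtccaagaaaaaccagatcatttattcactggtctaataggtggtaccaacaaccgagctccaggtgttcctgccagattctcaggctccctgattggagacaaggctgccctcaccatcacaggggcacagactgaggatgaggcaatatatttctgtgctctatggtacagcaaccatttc
Iglv2: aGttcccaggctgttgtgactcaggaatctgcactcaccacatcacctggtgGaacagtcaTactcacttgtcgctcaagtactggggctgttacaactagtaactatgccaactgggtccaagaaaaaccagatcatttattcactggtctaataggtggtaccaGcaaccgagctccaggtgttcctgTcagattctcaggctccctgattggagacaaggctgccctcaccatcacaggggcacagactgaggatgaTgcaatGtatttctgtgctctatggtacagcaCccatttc

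Intestine fixed the membership. All 168 members met the rule from the intestinal libraries alone and 14 also from the liver libraries alone. Without the LCWE intestines 27 would have dropped out and without the PBS intestines 23, whereas leaving out either liver group removed 0. A level of 1 RPKM in every library of a group was reached by 144 members in LCWE intestine, 141 in PBS intestine, 12 in LCWE liver and 0 in PBS liver. Just inside the rule were Igkv8-18, whose highest values were 1.12, 1.09 and 1.003 RPKM, and Ighv1-11 with 2.69, 1.25 and 1.03 RPKM. Just outside were Igkv12-38 with 3.87, 1.16 and 0.936 RPKM and Igkv11-125 with 9.70, 8.49 and 0.935 RPKM. Genes outside the rule held 0.433% to 2.45% of variable segment reads per library, and 29 of them reached 1 RPKM in 1 or 2 libraries.

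Libraries held 30294594 to 40253006 reads in intestine and 34741958 to 44921885 in liver. Variable segments took 83403, 92991 and 120108 of them in LCWE intestines and 69661, 59314 and 66610 in PBS intestines, but 1977, 1803 and 1046 in LCWE livers and 656, 367 and 466 in PBS livers. Of the liver segment values above 0, 86.5% were even numbers of reads, and of all values of 1 to 10 reads in liver 73.9% were even, so most liver reads stood in the counts as pairs. In intestine 53.0% of segment values and 70.8% of all values of 1 to 10 reads were even. Intervals below rest on halved reads, and they cover counting error only. The gut epithelium markers Fabp2, Vil1 and Epcam summed to 2070 to 5839 RPKM in LCWE intestines and 7849 to 11549 RPKM in PBS intestines. The sums were carried by Fabp2, with 676 to 3350 RPKM in LCWE intestines and 5747 to 9408 RPKM in PBS intestines, while Vil1 and Epcam overlapped. In the limma test described below 0 of these 3 passed, and their part in the segment levels was not tested.

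Summed over all variable segments, LCWE intestines held 5599, 7086 and 9526 RPKM and PBS intestines 4890, 5014 and 5960 RPKM. The groups overlapped, with a ratio of the means of 1.40. LCWE livers held 141, 108 and 80.7 RPKM, against 39.9, 27.8 and 31.9 RPKM in PBS livers. Here the groups did not overlap, and the ratio of the means was 3.31. The ratio was 3.17 for heavy, 3.42 for kappa and 4.15 for lambda segments, so all chains were higher in LCWE liver. Even so, segments in the intestine summed to 67.3 times the liver level under LCWE and 159 times under PBS.

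**Figure D1:**
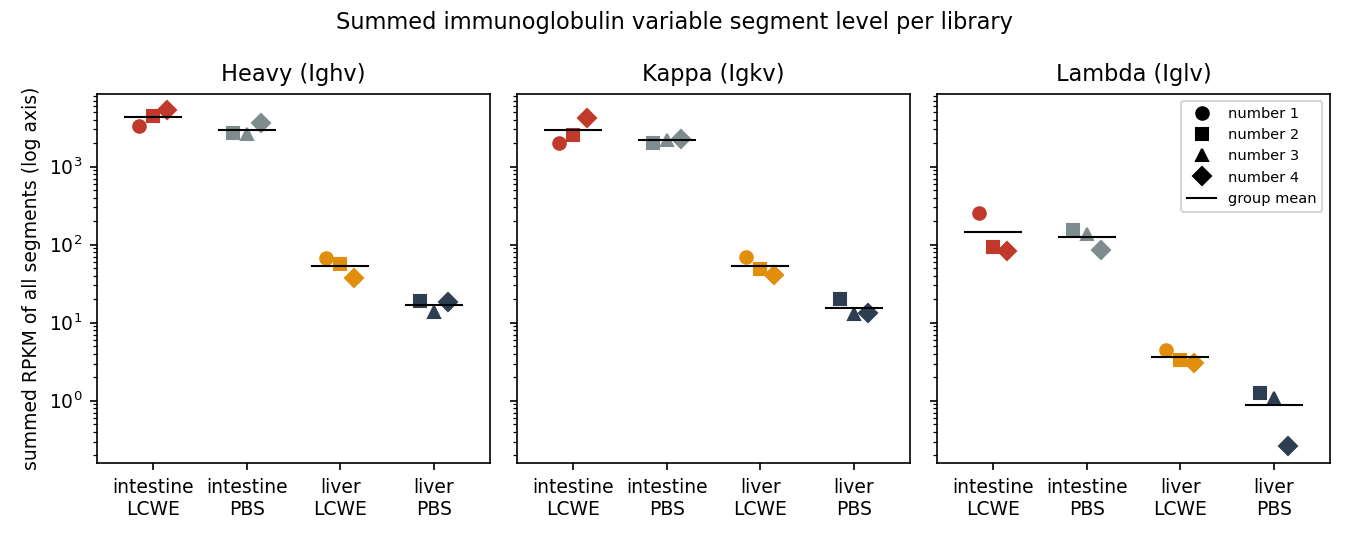
Summed RPKM of all heavy, kappa and lambda variable segments in each library, on a log axis. Each point is 1 library, its shape gives the replicate number and the line is the mean of the 3 libraries. In all 3 chains the LCWE livers lie above the PBS livers, while the intestinal groups overlap.

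The constant region genes, which follow the variable part in the same transcript, gave a second view. Igkc, the kappa constant region, had 61.2, 58.1 and 41.8 RPKM in LCWE livers and 26.5, 12.6 and 17.8 RPKM in PBS livers. It passed the limma test described below (log2 difference 1.52, adjusted p = 0.0379). So did Ighg2c, Ighg2b, Ighg1 and Iglc1, which encode IgG and lambda constant regions, all higher in LCWE liver. Thus 5 of 8 constant genes tested passed, while 3.39% of all genes tested were called higher. Igha and Iglc3 did not pass (adjusted p = 0.317 and 0.431 by limma), nor did Ighm. The summed heavy constant RPKM overlapped between the liver groups, with a ratio of the means of 2.49. Summed kappa segments stood at 0.742 to 1.13 times Igkc over the 12 libraries, so variable and constant parts of the kappa chain kept near-equal levels per length. Heavy chains did not. Summed heavy segments had means of 4342 and 2992 RPKM in LCWE and PBS intestine, against 481 and 349 RPKM for summed heavy constant genes. In LCWE and PBS liver the means were 53.8 and 17.0 RPKM, against 24.1 and 9.66 RPKM. Ighm, the IgM constant region, overlapped between groups, with 9.63, 8.49 and 4.20 RPKM in LCWE livers and 13.2, 2.16 and 1.77 RPKM in PBS livers. The high PBS value came from number 2.

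Isotype shares of heavy constant RPKM differed between the tissues. Igha, the IgA constant region, made up 66.5%, 58.4% and 67.4% of heavy constant RPKM in LCWE intestines and 70.5%, 50.2% and 62.3% in PBS intestines. In liver it made up 8.76%, 5.91% and 6.61% under LCWE and 5.83%, 20.7% and 23.0% under PBS. In liver the heavy constant RPKM was thus mostly of other classes than IgA. The gap between heavy variable and heavy constant sums differed by tissue, and its part in these shares was not tested.

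Heavy-chain usage, the share of a segment in all Ighv reads of a library, had a different leader in nearly every intestine. Ighv13-2 took 27.8% of heavy reads in LCWE intestine 1, with an exact 95% interval of 27.2% to 28.4%, but 0.10% in LCWE intestine 2 and 1.40% in LCWE intestine 4. In PBS intestines it took 2.34% in number 2, 1.46% in number 3 and 21.4% in number 4. A single dominant segment therefore stood in an intestine of each treatment, and the groups overlapped. Livers gave it 2.12%, 1.28% and 0.83% under LCWE, against 3.91%, 4.47% and 3.72% under PBS.

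Ighv11-2, the B-1 cell segment, took 17.2% (16.7% to 17.6%) in LCWE intestine 2 and 0.32% and 0.14% in LCWE intestines 1 and 4. PBS intestines gave it 1.33%, 0.38% and 0.40%. In the same LCWE intestine, Ighv10-1 took 15.6%, against 0.75% to 1.97% in the other 5 intestines, so these 2 segments made up about as much of the heavy reads as all Ighv1 segments together (33.9%). Its known partner Igkv14-126, named here after its values were seen, took 0.66%, 0.51% and 0.05% of kappa reads in LCWE intestines and 0.09%, 0.24% and 0.11% in PBS intestines. The library with high Ighv11-2 was not the one with the highest Igkv14-126. In liver, Ighv11-2 took 0.42%, 3.40% and 4.56% under LCWE and 1.30%, 3.35% and 0.74% under PBS, with overlap.

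Ighv14-3 led LCWE intestine 4 with 10.4% (10.1% to 10.8%). The other LCWE intestines gave it 0.34% and 0.51%, and PBS intestines gave it 0.74%, 1.22% and 1.41%. The lead in PBS intestines 2 and 3 was smaller. Ighv1-53 led number 2 with 7.25% (6.88% to 7.61%) and Ighv1-72 led number 3 with 8.96% (8.51% to 9.40%). Ighv1-72 took 0.96%, 3.97% and 5.30% in LCWE intestines and 3.64% and 3.32% in the other PBS intestines, with the reservation that its near copy Ighv1-62-3 may share reads.

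Other abundant heavy members were more even. Ighv1-26 took 3.19%, 2.99% and 2.90% in LCWE intestines and 6.19%, 4.26% and 2.89% in PBS intestines. Ighv1-55 took 2.92%, 2.44% and 4.75% in LCWE intestines and 4.59%, 2.80% and 5.30% in PBS intestines. Ighv1-80 took 2.14%, 2.16% and 2.26% in LCWE intestines, a range narrower than the 2.42%, 5.71% and 1.43% of PBS intestines. Each of these overlapped between treatments.

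In liver the leading heavy segment was smaller and rested on few reads. Ighv3-6 led LCWE liver 1 with 6.78% (4.60% to 9.28%), Ighv1-26 led number 2 with 4.89% (3.09% to 7.16%) and Ighv7-3 led number 4 with 9.96% (6.38% to 14.2%). Ighv1-53 led PBS liver 2 with 8.47% (4.48% to 13.7%), Ighv1-80 led number 3 with 8.94% (3.83% to 16.4%), and Ighv10-1 and Ighv1-53 tied in number 4 at 5.2% (2.08% to 10.2%). The intervals overlap, so no order of the liver leaders can be read at this depth. A segment with no read in a liver could have held up to 0.625% to 1.22% of heavy reads in LCWE livers and 1.91% to 3.26% in PBS livers, the share of 3 read pairs.

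**Figure D2:**
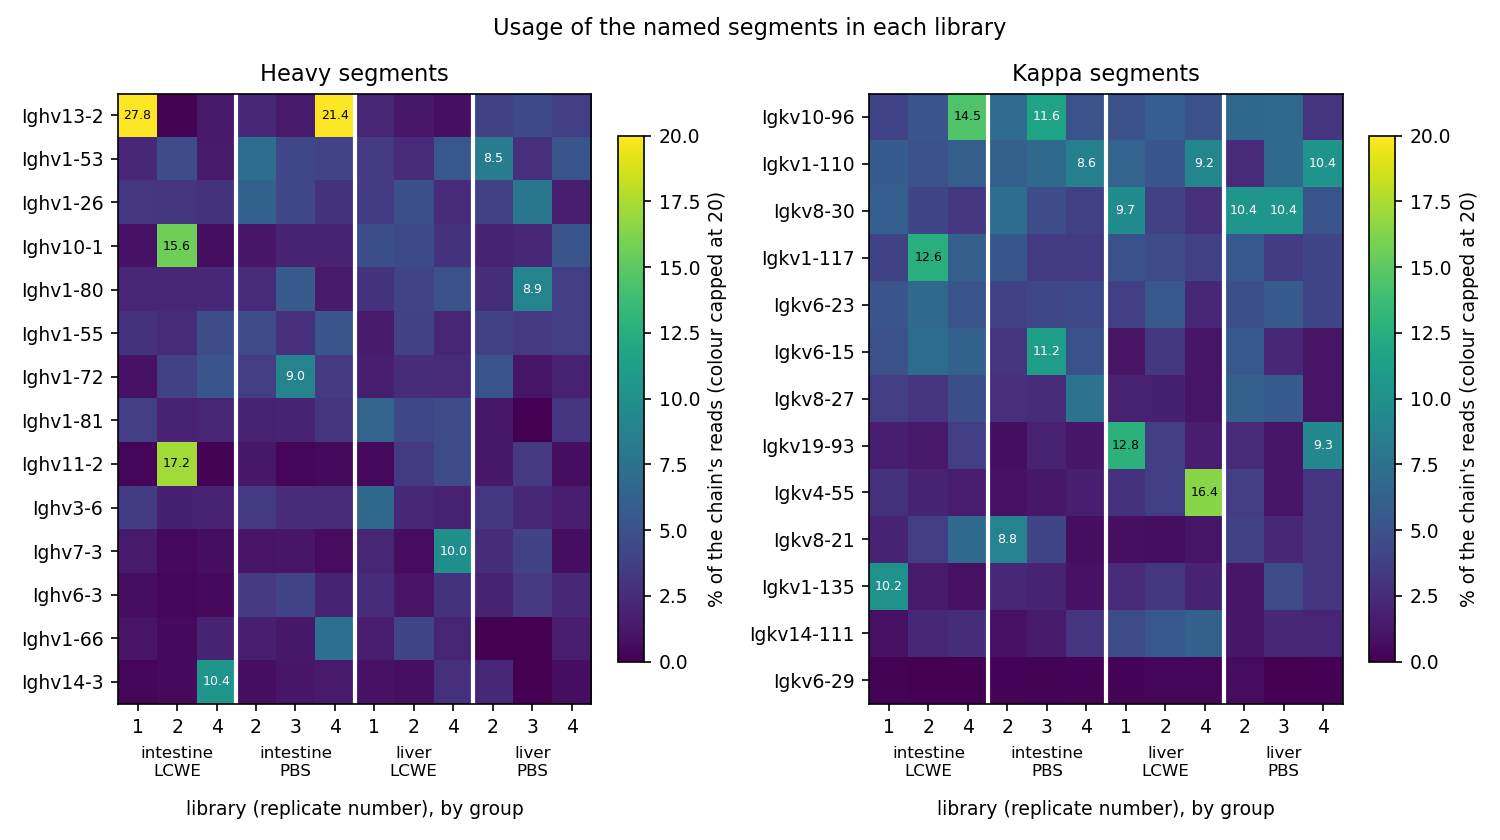
Usage of the named heavy and kappa segments in each of the 12 libraries, as the percentage of all reads of the chain (colour, capped at 20%; cells of 8% or more carry their value). Ighv13-2 is bright in LCWE intestine 1 and PBS intestine 4, Ighv11-2 and Ighv10-1 in LCWE intestine 2.

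Kappa usage was led by another segment in each LCWE intestine. Igkv1-135 took 10.2% in LCWE intestine 1 and 1.41% and 0.88% in numbers 2 and 4, against 2.26%, 1.90% and 0.96% in PBS intestines. Igkv1-117 took 3.91%, 12.6% and 6.07% in LCWE intestines and 5.32%, 3.48% and 3.42% in PBS intestines. Igkv10-96 took 4.0%, 5.26% and 14.5% in LCWE intestines and 7.02%, 11.6% and 5.14% in PBS intestines, with a mean of 7.93% in both. Igkv8-21 took 1.95%, 3.71% and 6.84% in LCWE intestines and 8.84%, 4.17% and 0.77% in PBS intestines. All 4 overlapped between treatments.

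A few kappa segments were used broadly. Igkv1-110 stayed between 5.03% and 6.09% in LCWE intestines and between 6.13% and 8.60% in PBS intestines, so all LCWE values lay below. Igkv6-23 took 5.25%, 6.88% and 5.18% in LCWE intestines, all above the 3.96%, 4.26% and 4.38% of PBS intestines. Igkv8-30 took 5.99%, 4.19% and 3.13% in LCWE intestines and 7.16%, 4.69% and 3.79% in PBS intestines, with overlap. Over all 168 members, the 3 LCWE shares lay above the 3 PBS shares for 4 (2.38%) and below for 15 (8.93%) in intestine. In liver they lay above for 10 (5.95%) and below for 8 (4.76%), so most shares overlapped between treatments. With 3 against 3 libraries, such separation arises at random at a rate of up to 0.1 over both directions. Shares of a chain also depend on each other, so neither the counts nor the single segments were read as a treatment difference.

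In liver, Igkv19-93 took 12.8% (9.88% to 16.0%) in LCWE liver 1 and 3.73% and 1.53% in numbers 2 and 4, against 2.45%, 1.16% and 9.33% in PBS livers. Igkv4-55 took 16.4% (12.1% to 21.4%) in LCWE liver 4 and 2.90% and 3.73% in numbers 1 and 2, against 3.67%, 1.16% and 3.11% in PBS livers. Each was high in 1 of the LCWE livers, and Igkv19-93 also in PBS liver 4, while Igkv8-30 led PBS livers 2 and 3 at 10.4% each. Igkv14-111 took 4.55%, 5.47% and 6.12% in LCWE livers and 1.22%, 2.31% and 2.07% in PBS livers, with no overlap.

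Lambda chains, which few mouse antibodies carry, took 11.5%, 3.65% and 2.06% of light-chain reads in LCWE intestines and 7.29%, 6.13% and 3.77% in PBS intestines. In livers they took 6.39%, 6.72% and 7.27% under LCWE and 6.30%, 7.98% and 2.03% under PBS, the last from 4 reads. Iglv1 made up most of the lambda reads in every library, with 77.9%, 66.6% and 57.9% in LCWE intestines and 86.3%, 82.5% and 69.4% in PBS intestines. The other 2 lambda members changed places. Iglv2 took 16.3%, 6.68% and 6.22% and Iglv3 took 5.79%, 26.7% and 35.9% in LCWE intestines, while in PBS intestines Iglv2 took 4.77%, 4.45% and 6.24% and Iglv3 took 8.93%, 13.1% and 24.4%.

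The effective number of segments, the inverse of the summed squared shares, says how many equally used segments would give the observed evenness. For heavy chains it was 10.7, 13.5 and 29.2 in LCWE intestines and 33.2, 32.1 and 14.5 in PBS intestines. The low values belong to the libraries led by Ighv13-2 or Ighv11-2, and the groups overlapped (17.8 ± 9.95 against 26.6 ± 10.4, SD, n = 3 each). For kappa chains it was 27.0, 22.7 and 19.3 in LCWE intestines and 25.5, 21.8 and 23.9 in PBS intestines, also with overlap. In livers the heavy number was 32.4, 41.5 and 30.7 under LCWE and 32.2, 28.7 and 37.8 under PBS, and the kappa number was 17.0, 32.8 and 16.6 under LCWE and 24.4, 24.0 and 24.5 under PBS. The plain number falls where reads are few. With the unbiased index, which allows for the number of read pairs and was chosen after seeing the data, the heavy mean was 39.0 in LCWE livers and 45.5 in PBS livers, which turns the order of the means of 34.9 and 32.9.

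**Figure D3:**
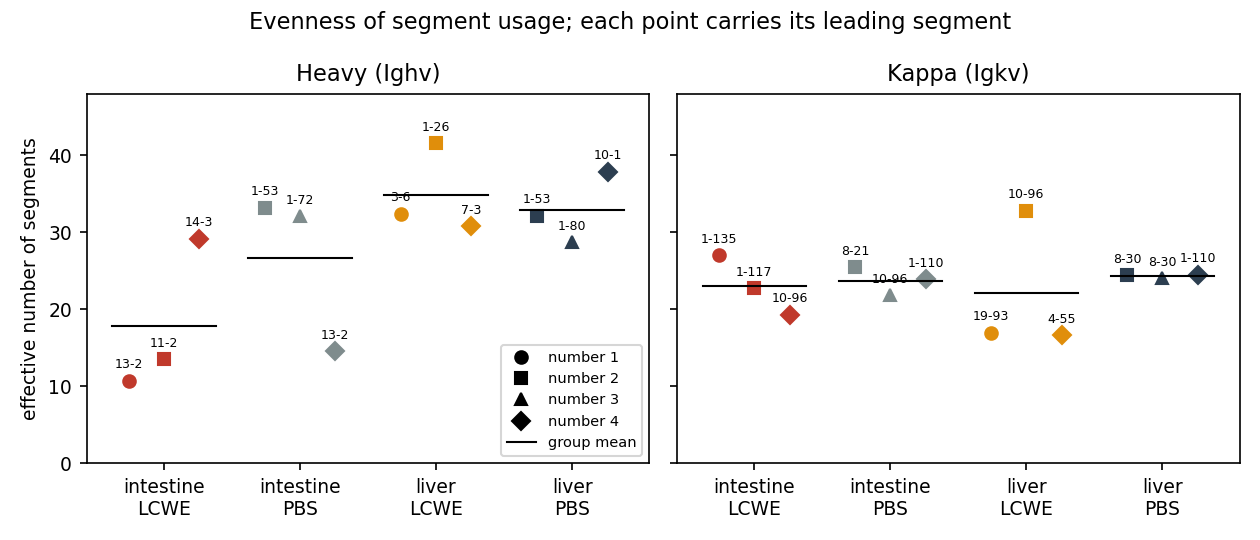
Effective number of heavy and kappa segments per library. Each point is 1 library and carries the name of its leading segment without the chain prefix, its shape gives the replicate number, and the line is the group mean. Heavy usage is least even in LCWE intestines 1 and 2 and PBS intestine 4, at 10.7, 13.5 and 14.5.

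By family, the large Ighv1 family took 33.9% to 57.5% of heavy reads over the 12 libraries, from 47 members. Ighv13, with 1 member, reached 27.8% in LCWE intestine 1 and 21.4% in PBS intestine 4. Ighv11 reached 17.4% and Ighv10 reached 20.6% in LCWE intestine 2, and Ighv14 reached 12.1% in LCWE intestine 4. No Ighv12, Ighv15 or Ighv16 gene met the rule, and their shares stayed at or below 0.06%. Among kappa families, Igkv4, with 17 members, took 23.0%, 11.9% and 32.3% in LCWE livers and 15.9%, 13.9% and 12.4% in PBS livers, again with overlap.

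Position along the heavy locus was compared by splitting the 90 heavy members into 3 equal runs. The 30 nearest the constant genes, Ighv5-2 to Ighv14-4, took 20.7%, 40.6% and 39.9% of heavy reads in LCWE intestines and 34.2%, 24.3% and 14.1% in PBS intestines. The middle run, which holds Ighv13-2, took 54.2%, 33.4% and 22.4% in LCWE intestines and 29.5%, 34.4% and 51.6% in PBS intestines. In livers each run stayed between 25.4% and 39.6%, so liver libraries drew on all stretches of the locus.

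In intestine the spread between libraries of a group was far larger for segments than for other genes. The median SD of log2(RPKM + 0.5) was 0.96 for the 168 members in LCWE intestine, against 0.20 for the 17510 genes tested, and 0.80 for members in PBS intestine, against 0.13. An SD above 1 was found for 48.2% of members and 1.38% of genes in LCWE intestine, and for 36.3% of members and 1.26% of genes in PBS intestine. The median member differed 3.69-fold between the highest and lowest LCWE intestine and 2.92-fold between PBS intestines. Among the constant region genes, Igha had an SD of 0.53 in LCWE intestine and 0.18 in PBS intestine, and Igkc had 0.57 and 0.17. Not all constant region genes were so steady. Iglc1 had 268, 77.6 and 56.2 RPKM in LCWE intestines, and Ighg3 had 9.54, 38.3 and 26.7 RPKM in PBS intestines. A wide spread was thus not particular to variable segments. In liver, where 39 members passed the test filter, their median SD was 0.51 under LCWE and 0.45 under PBS, against 0.13 and 0.20 for all 14404 genes tested. Those 39 lay near the filter on few reads, and only 4 reached 0.5 RPKM in all PBS livers. The other genes covered all levels, and the part of counting error in the liver spread was not tested.

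**Figure D4:**
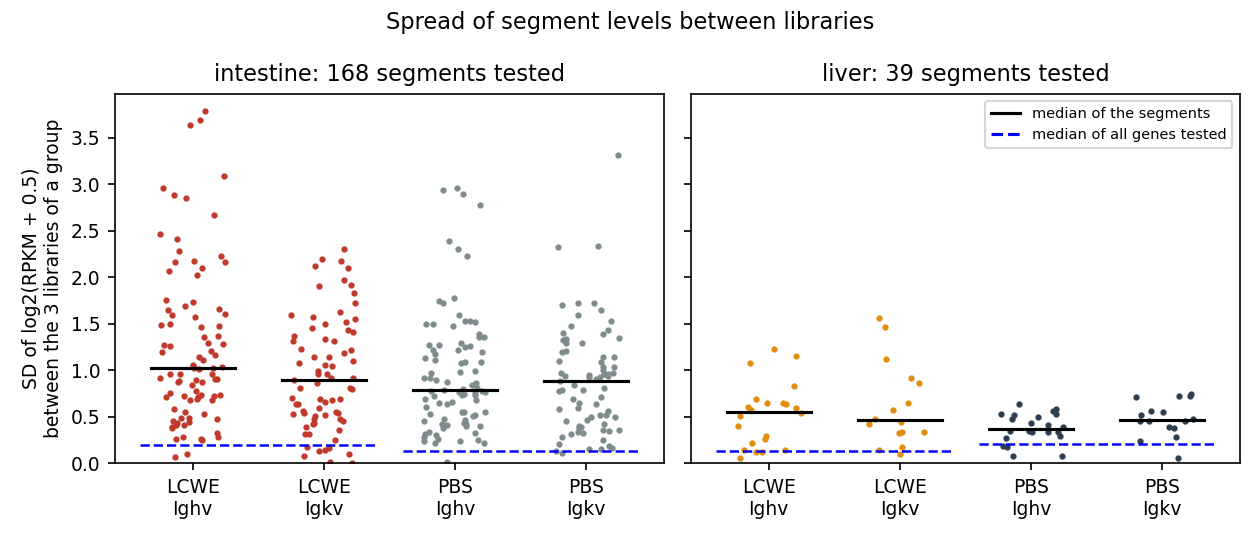
SD of log2(RPKM + 0.5) between the 3 libraries of each group, 1 point per heavy or kappa member that passed the test filter of the tissue. Black lines are medians of the segments shown and dashed lines are medians of all genes tested. In intestine the segment medians lie at 0.79 to 1.02, above the dashed lines at 0.13 and 0.20.

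Some members stood out in a single library. In 16 members the highest intestinal share was at least 5 times the next highest. Of these, 2 peaked in LCWE intestine 2, 6 in LCWE intestine 4, 4 in PBS intestine 2, 1 in PBS intestine 3 and 3 in PBS intestine 4. Besides Ighv11-2, Ighv10-1 and Ighv14-3 they include Igkv3-4 at 8.19% in PBS intestine 4, Ighv5-9-1 at 6.30% in PBS intestine 2 and Ighv2-6 at 5.07% in LCWE intestine 4, named after their values were seen. Such peaks occurred under both treatments.

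Rank order of usage was nonetheless shared. Over the 90 heavy members, the Spearman correlation of usage between libraries of the same intestinal group had a median of 0.68 over 6 pairs, and of 0.70 over 9 pairs of intestines of unlike treatment. The Pearson correlations, which weigh the leading segments, had medians of 0.21 and 0.29. Over the 75 kappa members the Spearman medians were 0.73 and 0.69 and the Pearson medians 0.57 and 0.60. The medians within and across treatments lay close together, and all libraries share the germline, gene lengths and mapping. Between tissues, at equal treatment and number, the median Spearman correlation was 0.61 for heavy and 0.66 for kappa members over 6 pairs, and at equal treatment and other number 0.56 and 0.60 over 12 pairs. The labels do not say that equal numbers mark the same animal.

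LCWE and PBS were compared gene by gene with limma on log2(RPKM + 0.5), with Benjamini-Hochberg adjustment over all genes tested in a tissue. In intestine 0 of 168 members passed an adjusted p of 0.05, and 0.0% of all 17510 genes did. At an unadjusted p below 0.05 there were 11 members higher and 6 lower in LCWE intestine, while 7.69% of all genes were higher and 4.89% lower. With voom on reads 0 members passed, with 1 fit over the 4 groups 4 members were higher and 2 lower, at 1.39% of all genes, and without LCWE intestine 1, 3 members were higher, at 0.0752% of all genes. All 3 LCWE libraries lay above all 3 PBS libraries for 8 members and below for 5, while 13.2% and 6.15% of all genes tested did so. Those member counts are shares of 4.76% and 2.98%, both under the background. The median log2 difference was 0.20 for members and 0.11 for all genes.

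Beside these values, all 10 plasma cell markers and all 9 B cell markers had a higher mean in LCWE intestine on the log2 scale, and 0 of either list passed. So did 12079 of all 17510 genes tested, and all 8 T cell, 5 lymphoid follicle stroma and 3 hepatocyte markers were higher. Of the germinal centre markers 2 of 3 tested were higher, and of the gut epithelium markers 0 of 3. The direction was thus not particular to B cell and plasma cell markers. Plasma cell markers, such as Jchain and Mzb1, summed to 304 to 469 RPKM in LCWE intestines and 240 to 272 RPKM in PBS intestines. Most of this was Jchain (157 to 284 and 128 to 143 RPKM) and Xbp1 (93.9 to 116 and 69.3 to 80.5 RPKM). Sdc1 and Derl3 did not overlap either, whereas Mzb1, Prdm1, Irf4, Tnfrsf17, Pou2af1 and Eaf2 overlapped between treatments. B cell markers, such as Ms4a1 and Cd79a, summed to 35.6 to 65.7 RPKM in LCWE intestines and 29.4 to 52.1 RPKM in PBS intestines. No plasma cell or B cell marker was at 0 in every intestinal library. Their part in the segment levels was not tested.

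The liver levels were higher under LCWE across many segments, counted here over all 168 members, each of which the intestinal libraries alone had chosen. All 3 LCWE livers lay above all 3 PBS livers for 46 members (27.4%) and below for 0, while 14.4% and 5.83% of all genes with reads in liver did so. The mean RPKM was higher in LCWE liver for 144 members, lower for 12 and 0 in every liver for 12. Of all 28274 genes with reads in liver, 16872 had a higher and 11402 a lower mean under LCWE. Higher levels came with more segments seen. Members with no read numbered 34, 31 and 51 in LCWE livers and 65, 84 and 72 in PBS livers.

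Only 39 members reached 0.5 RPKM in 3 livers and could be tested one by one. Of these, 32 reached it in all LCWE livers and 4 in all PBS livers, so the filter itself favoured segments that were high under LCWE, and the 39 do not stand for all members. In the limma fit 5 passed an adjusted p of 0.05, all higher in LCWE liver, and 0 were lower. Of all 14404 genes, 3.39% were called higher and 0.646% lower.

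Igkv14-111 had 3.15, 2.66 and 2.5 RPKM in LCWE livers and 0.24, 0.30 and 0.28 RPKM in PBS livers. Its values were close within each group and far apart between them, from 44, 44 and 32 reads against 4 in each PBS liver. Counts of 4 reads carry a large counting error, so the equal PBS values may be accidental. The SE below rests on this closeness and may be too small, which was not tested. The log2 difference was 2.07 ± 0.13 (SE), a 4.21-fold difference on the scale of RPKM + 0.5, with an adjusted p of 0.00483 by limma. In intestine the same segment had 17.9, 59.6 and 110 RPKM under LCWE and 18.0, 32.7 and 70.1 RPKM under PBS, with overlap.

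Ighv1-81 had 4.50, 2.54 and 1.80 RPKM in LCWE livers and 0.25, 0.00 and 0.58 RPKM in PBS livers. All LCWE livers were higher, with a log2 difference of 2.14 ± 0.37 (SE) and an adjusted p of 0.0312 by limma. Ighv1-66 had 0.99, 2.18 and 0.72 RPKM in LCWE livers and 0.00, 0.00 and 0.26 RPKM in PBS livers, with a log2 difference of 1.56 ± 0.32 (SE) and an adjusted p of 0.0497 by limma. With PBS values at or near 0, the size of both differences depends on the pseudocount, and Ighv1-66 passed under none of the 12 other settings that gave it a value, at adjusted p of 0.0521 to 0.318.

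Igkv1-110 had 4.01, 2.39 and 3.45 RPKM in LCWE livers and 0.45, 0.83 and 1.27 RPKM in PBS livers. Its log2 difference was 1.51 ± 0.27 (SE), with an adjusted p of 0.0346 by limma. Iglv1, the main lambda segment, had 3.57, 2.22 and 2.72 RPKM in LCWE livers and 1.15, 0.64 and 0.26 RPKM in PBS livers, with a log2 difference of 1.55 ± 0.30 (SE) and an adjusted p of 0.0425 by limma. Neither overlapped between treatments. Of the other settings that gave a value, Igkv14-111 passed in 11 of 13, Igkv1-110 in 10 of 16, Ighv1-81 in 8 of 16 and Iglv1 in 4 of 16. The adjusted p of Iglv1 ran between 0.0199 and 0.304 over them. The share of Igkv1-110 did not separate in the same way, since it took 6.31%, 5.34% and 9.18% of kappa reads in LCWE livers and 2.45%, 6.94% and 10.4% in PBS livers.

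**Figure D5:**
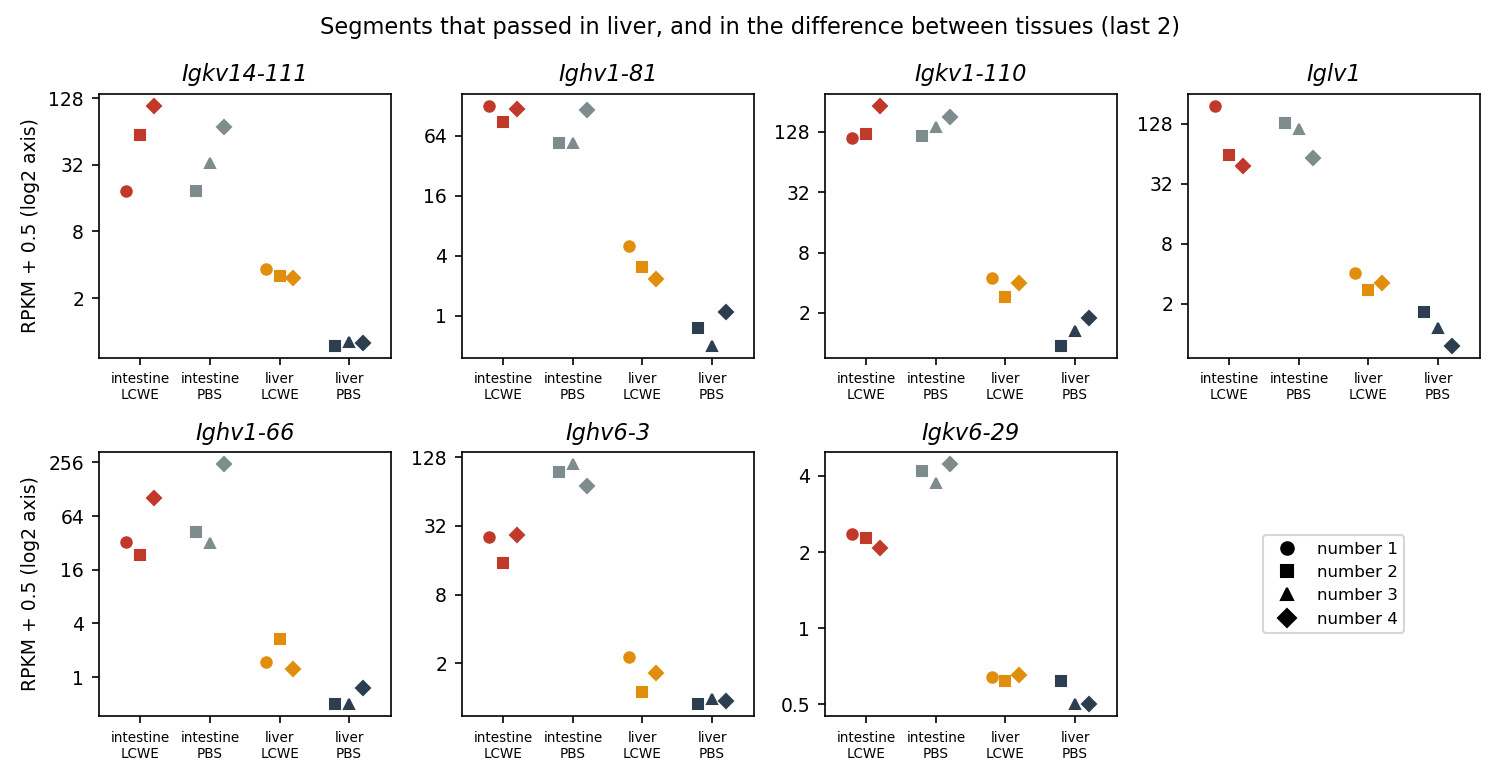
RPKM + 0.5 of the 5 segments that passed in liver and of Ighv6-3 and Igkv6-29, which passed in the difference between tissues, on a log2 axis. Each point is 1 library and its shape gives the replicate number. LCWE livers lie above PBS livers for the first 5 and LCWE intestines below PBS intestines for the last 2.

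Segments that led a liver did not all pass. Igkv4-55 had a log2 difference of 1.93 ± 0.46 (SE) and an adjusted p of 0.0737, and Igkv19-93 one of 1.49 ± 0.77 (SE) and an adjusted p of 0.365, both by limma. Ighv13-2 was near equal in liver, at 1.47, 0.74 and 0.32 RPKM under LCWE and 0.75, 0.62 and 0.71 RPKM under PBS.

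How many liver calls stood depended on the setting. The count was 0 without LCWE liver 1 or LCWE liver 2, 3 without LCWE liver 4, 7 without PBS liver 2, 2 without PBS liver 3 and 5 without PBS liver 4. The share of all genes called higher moved as well, to 0.515% without LCWE liver 1, 0.336% without LCWE liver 2 and 1.45% without LCWE liver 4. It was 4.84% without PBS liver 2, 0.763% without PBS liver 3 and 1.55% without PBS liver 4. With voom on the reads 2 members passed, while 4.32% of all genes were called higher. All genes called split into 489 higher and 93 lower as deposited, 348 and 126 after quantile scaling and 355 and 125 after median-ratio scaling. The authors' deposited table lists 4 members in liver, all higher under LCWE, of which 3 had an FDR under 0.05. These are Igkv1-110, Iglv1 and Igkv10-96, with log2 fold changes of 2.04, 2.21 and 1.76 in that table. Igkv4-53 is the remaining one, with an FDR of 0.0545. Of the 5 segments that passed in the main liver fit, Igkv14-111, Ighv1-81 and Ighv1-66 are not listed there for liver. Igkv10-96 is listed but did not pass in the main fit. For intestine the authors' table lists 17 members, 12 higher and 5 lower, and 0 under that FDR. The share of all genes under that FDR in the authors' table was not computed, so these counts stand without a background.

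Of 10 plasma cell markers, 4 were tested in liver and 2 passed, both higher in LCWE liver by limma. Jchain, which joins IgA and IgM units, had 2.28, 1.60 and 1.54 RPKM in LCWE livers and 0.91, 0.63 and 0.82 RPKM in PBS livers (log2 difference 0.84, adjusted p = 0.0453). Derl3, a protein of the secretory pathway, had 6.27, 4.82 and 2.46 RPKM in LCWE livers and 0.29, 1.02 and 1.01 RPKM in PBS livers (log2 difference 1.96, adjusted p = 0.0429). Xbp1 had a log2 difference of 0.32 with an adjusted p of 0.201 by limma, and Sdc1 one of -0.04 with an adjusted p of 0.91. The whole plasma cell list summed to 109 to 131 RPKM in LCWE livers and 96.8 to 101 RPKM in PBS livers. Most of this was Xbp1 (71.3 to 90.7 and 63.8 to 67.8 RPKM) and Sdc1 (26.7 to 33.1 and 29.7 to 35.8 RPKM). Mzb1, under the filter, had 0.17, 0.22 and 0.19 RPKM in LCWE livers and 0.20, 0.15 and 0.17 RPKM in PBS livers. Derl3 in LCWE livers was near its 3.87, 4.03 and 6.32 RPKM in LCWE intestines, where Jchain had 157, 157 and 284 RPKM. None of the 9 B cell markers passed the filter in liver, and they summed to 1.32 to 1.66 RPKM in LCWE livers and 1.19 to 1.48 RPKM in PBS livers. T cell markers summed to 5.16 to 5.51 RPKM in LCWE livers and 2.59 to 2.91 RPKM in PBS livers, and 1 of 3 tested passed. The hepatocyte markers Alb, Apoa2 and Ttr summed to 21217 to 25261 RPKM in LCWE livers and 27865 to 42101 RPKM in PBS livers, and 0 of 3 passed. No marker of these 4 lists was at 0 in every liver. Their part in the segment levels was not tested.

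The difference between tissues was tested in 1 limma fit over 12 libraries, as the LCWE minus PBS difference in liver less that in intestine. Of 168 members 2 passed, both with the higher difference in liver, while 0.532% of 18619 genes passed in that direction and 0.204% in the other. Ighv6-3 had 25.1, 14.7 and 26.0 RPKM in LCWE intestines and 94.6, 111 and 71.1 RPKM in PBS intestines, with no overlap. In livers it had 1.78, 0.63 and 1.13 RPKM under LCWE and 0.38, 0.47 and 0.43 RPKM under PBS, again with no overlap and in the other direction. The tissue difference was 2.87 ± 0.39 (SE) on the log2 scale, with an adjusted p of 0.0150 by limma. Within intestine the log2 difference was -2.07 ± 0.26 (SE) with an adjusted p of 0.158, and within liver 0.80 ± 0.25 (SE) with an adjusted p of 0.15, so neither passed alone. As usage, Ighv6-3 took 0.73%, 0.31% and 0.47% of heavy reads in LCWE intestines and 3.33%, 4.02% and 1.90% in PBS intestines. In liver the Ighv6 family, with 2 members, took 3.39%, 2.13% and 3.32% under LCWE and 3.91%, 3.35% and 2.97% under PBS, with overlap. Summed heavy segments were 3.17 times as high in LCWE as in PBS livers. The PBS liver values of Ighv6-3 all lay under the pseudocount of 0.5 RPKM. Whether its liver difference exceeded that of heavy segments in general was not tested.

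Igkv6-29 had 1.85, 1.77 and 1.57 RPKM in LCWE intestines and 3.70, 3.25 and 3.96 RPKM in PBS intestines. Livers held at most 0.15 RPKM of it, from 2 reads or none, which is under the 3 read pairs that a count of 0 allows. The fit gave a tissue difference of 1.14 ± 0.17 (SE) on the log2 scale with an adjusted p of 0.0224 by limma. Its liver side was set by the pseudocount, so this does not show that the treatment difference differed between tissues. In intestine its log2 difference was -0.89 ± 0.12 (SE), with an adjusted p of 0.158. Its nearest relative, Igkv6-20, matched it at 98.3%, so its few reads are uncertain. The 5 segments that passed in liver did not pass in the tissue difference, where their adjusted p ran between 0.157 for Igkv1-110 and 0.462 for Igkv14-111.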

How the data were processed

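RNA sequencing libraries of total RNA from small intestine and liver were grouped by the labelled tissue and treatment. RNA came from TRIzol extraction with DNase I digestion and went into Illumina libraries, per the labels' protocols, which leave strandedness open. Per the submitters' processing notes, the tools were edgeR 3.12.1, featureCounts, Subread 1.5.1 and Trimmomatic 0.36 and the build was mm10, with no roles stated. How reads were aligned, and what was done with reads matching several segments, is not given in the sources used. The authors deposited RPKM per gene and library, and a table of their own p-values, false discovery rates (adjusted p-values) and log2 fold changes. Of 16 library columns, 4 matched no sample and were not used.

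Reads were recovered as RPKM times length, 100% of values being whole to within 0.001, which gave library totals and usage shares. Variable exons came from GENCODE M21 and were compared with Biopython 1.88. Differences were fitted with limma 3.58.1 in R 4.3.3 on log2(RPKM + 0.5), over genes at 0.5 RPKM or more in 3 libraries, with a mean-dependent prior variance and two-sided p-values, each tissue apart, after a test on simulated data. Intervals are exact binomial at 95% (scipy 1.17.1). With 3 against 3 libraries, an exact permutation p cannot go below 0.1, so sums and shares got no test.

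Members and lists were chosen with earlier results of these data known. Genes are named by rule: the 8 heavy and 8 kappa members of highest mean usage, all lambda members, the leader of each library, those that passed a test and those beside the threshold. Marker lists also covered germinal centre, lymphoid follicle stroma and hepatocytes. One planned B cell marker is not reported here. Recombination signals and promoter motifs were not analysed here. Alternatives changed the pseudocount, filter, scaling, moderation, tool, grouping of the fit and block, and left out each library.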

Additional observations from a re-analysis of the deposited data

Results flagged for a closer look

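The LCWE minus PBS difference was set apart between liver and intestine for 2 segments by the interaction term of the limma fit over all 12 libraries. For Ighv6-3 the liver difference exceeded the intestinal one by 2.87 on the log2 scale. It was lower in 3 of 3 LCWE intestines than in any PBS intestine and higher in 3 of 3 LCWE livers than in any PBS liver, and it passed in 20 of 21 other settings, with an adjusted p of 0.0102 to 0.0674. Its PBS liver values lay under the pseudocount of 0.5 RPKM, and summed heavy segments were also higher in LCWE liver. For Igkv6-29 the excess was 1.14 on the log2 scale, but with so few liver reads this does not show that the treatment difference differed between tissues. It was lower in 3 of 3 LCWE intestines, held at most 2 reads per liver, and passed in 14 of 21 other settings, with an adjusted p of 0.0132 to 0.128.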

How the results depend on the processing

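The count of members that passed in intestine (0) became 6 with 1 fit over the 4 groups, where 1.39% of all genes passed. It ran between 0 and 3 with 1 library left out. The count that passed in liver (5) fell to 2 with a pseudocount of 0.1, 3 with no filter, 3 with quantile scaling, 3 with median-ratio scaling and 2 with voom, and ran between 0 and 7 with 1 library left out. In the same order, 3.05%, 0.997%, 2.42%, 2.46% and 4.32% of all genes were called higher, against 3.39% in the main fit. With LCWE liver 1 or 2 left out the member count was 0, and fewer members, 25 and 27, could then be tested. The tissue difference count (2) became 1 with a pseudocount of 0.1 and 0 with voom. In those settings 0.645% and 0.709% of all genes were called higher. The count ran between 1 and 7 with 1 library left out, the highest without LCWE intestine 1 and 4 without PBS intestine 2 or 3. The 7 were 4 higher and 3 lower, while 1.72% of all genes were called higher and 0.78% lower. These shares were 0.244% and 0.0704% without PBS intestine 2, and 0.0814% and 0.0488% without PBS intestine 3. In every setting that gave them a value, the 5 liver segments kept a higher level in LCWE liver. The replicate numbers shared by groups gave correlations of 0.09 and 0.11 in intestine and -0.08 and -0.04 in liver. Between the tissues, at equal treatment and number, they lay between -0.05 and 0.08 over all genes, and over the members at 0.18, 0.24 and 0.22 for LCWE and 0.04, 0.05 and 0.11 for PBS. The numbers were not taken as pairs, and the tissue difference treats the 12 libraries as independent. With the number as a replicate block, 0 members passed in intestine, 0 in liver and 1 in the tissue difference. Few genes of any kind passed under the block. The shares were 0.0% in intestine and 0.0833% higher and 0.0833% lower in liver. In the tissue difference they were 0.0483% higher and 0.0161% lower. In PBS liver the effective number moved to 45.5 for heavy chains and 31.8 for kappa chains with the unbiased index, and to 23.5 for kappa chains over members alone. Median-ratio scaling moved the median of all genes to 0.01 from 0.11 in intestine and to -0.02 from 0.06 in liver, and that of the members to 0.09 from 0.20 in intestine. Members numbered 184 at a threshold of 0.5 RPKM and 131 at 5 RPKM. Low read numbers limit single-segment usage in liver, where a share of 3 read pairs reached 3.41% of kappa reads in PBS liver 3.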

Other observations

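Igkv14-130, outside the rule and named after its values were seen, reached 78.0 RPKM in LCWE intestine 4, against 6.19 and 0.49 RPKM in the other LCWE intestines and 0.00 to 0.19 RPKM in PBS intestines. Igkv4-79, likewise outside, reached 26.4 RPKM in PBS intestine 4 and 0.32 to 2.5 RPKM in the other 5 intestines. Usage in 5 of 6 livers correlated best, by Spearman's measure over heavy members, with the intestine of the same number among the 3 intestines of their own treatment, and in 2 of 6 by Pearson's. Among all 6 intestines these counts were 4 and 1. For kappa members the counts were 4 and 3 of 6 within the treatment, and 3 and 2 among all intestines. With 3 or 6 intestines to choose from, some matches arise at random, so these counts were not read as pairing. Germinal centre markers passed for 0 of 3 tested in intestine and 0 of 1 in liver, and summed to 4.90 to 11.2 RPKM in LCWE intestines and 5.99 to 7.81 RPKM in PBS intestines. Markers of lymphoid follicle stroma, such as Cxcl13, passed for 0 of 5 in intestine and 0 of 3 in liver. They summed to 10.6 to 42.8 RPKM in LCWE livers and 5.56 to 8.82 RPKM in PBS livers. The highest sum was mostly Cxcl13 in LCWE liver 4, at 36.9 RPKM, and Cxcl13 itself overlapped between the liver groups.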
